A study of Mus musculus and Rattus norvegicus with 4 samples.

Results

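Peaks of MEF2A, a muscle transcription factor, that lie deep inside genes of C2C12 cells are described here. C2C12 is a mouse skeletal myoblast line. The cells were grown in 10% fetal bovine serum and then kept for 48 h in differentiation medium with 2% horse serum. MEF2A-bound DNA was mapped by ChIP-exo, in which an exonuclease trims the immunoprecipitated DNA up to the bound protein. The series also held a MEF2A library from cardiomyocytes of newborn rats aged 1 to 3 days and, for both cell types, a library made with normal rabbit IgG. Each of these groups was a single library. The deposited C2C12 list gives 2797 peaks on mm10, each with a position and a score. No header states the scale of the score, which is taken here as the peak caller's, so that "stronger" means a higher score. A peak was counted as deep inside a gene if it overlapped the span of a protein-coding gene, from its lowest to its highest annotated coordinate (RefSeq, GRCm38.p6), and its nearer edge was more than 5 kb from both ends of every such span. This rule took 1055 of the 2797 C2C12 peaks (37.7%, exact binomial 95% interval 35.9 to 39.5%), or 1055 of the 4665 peaks in both MEF2A lists. All values come from the single C2C12 MEF2A library, so no difference below was tested over samples. Read depth is unknown, intervals cover counting error only, and a peak list holds no expression with which to check the cell type.

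The MEF2 (myocyte enhancer factor 2) proteins bind DNA as dimers through a MADS box and a MEF2 domain, and recognise a short A- and T-rich element. They act with MyoD family factors to drive muscle genes during differentiation and are held in check by class IIa histone deacetylases. In muscle their sites lie in promoters and also in distal enhancers, many of which sit in introns.

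Some of the peaks lay at start sites that RefSeq lists within the host gene, away from both ends of its span. Of the 999 deep peaks on the chromosomes covered by the table of start sites, 24 (2.40%, exact binomial 95% interval 1.55 to 3.55%) were within 1 kb of a listed start, while 0.916% of the deep sequence lies that close to one. Distance ran from the nearer edge of a peak, whereas the share of sequence counts single bases, so these are not like measures. The nearest start belonged to a coding gene, the host itself, for 14 of the 24 peaks and to a long noncoding RNA for the other 10. A peak inside 3425401B19Rik with a score of 415 is among these 10, and its midpoint was also 0.302 kb before the start of that coding host. The 250 bases before the start are shown for 4 coding genes whose start window a peak overlapped (RefSeq, GRCm38.p6), to show what the peaks cover. They are written 5′ to 3′ on the gene's strand, with the bases under the MEF2A peak in capitals.
Hdac9, chr12:34528890-34529139, minus strand: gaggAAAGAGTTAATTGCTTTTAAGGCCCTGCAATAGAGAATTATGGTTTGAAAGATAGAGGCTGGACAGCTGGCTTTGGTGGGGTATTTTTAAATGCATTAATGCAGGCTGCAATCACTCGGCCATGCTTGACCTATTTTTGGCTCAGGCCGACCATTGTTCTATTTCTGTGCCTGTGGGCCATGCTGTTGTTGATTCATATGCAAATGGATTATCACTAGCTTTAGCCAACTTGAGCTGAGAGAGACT
Nr4a1, chr15:101266596-101266845, plus strand: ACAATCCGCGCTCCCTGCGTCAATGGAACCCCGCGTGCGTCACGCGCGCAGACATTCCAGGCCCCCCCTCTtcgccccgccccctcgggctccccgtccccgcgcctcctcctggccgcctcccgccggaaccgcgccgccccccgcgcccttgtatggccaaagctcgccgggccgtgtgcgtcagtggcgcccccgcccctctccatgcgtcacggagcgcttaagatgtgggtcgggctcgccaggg
Creb5, chr6:53573124-53573373, plus strand: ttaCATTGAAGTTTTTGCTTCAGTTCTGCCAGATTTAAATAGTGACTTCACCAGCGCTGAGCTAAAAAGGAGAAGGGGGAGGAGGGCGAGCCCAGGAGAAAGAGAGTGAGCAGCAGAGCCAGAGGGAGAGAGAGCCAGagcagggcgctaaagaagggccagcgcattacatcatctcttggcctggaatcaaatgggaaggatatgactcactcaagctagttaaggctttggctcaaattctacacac
Ppfia4, chr1:134332929-134333178, minus strand: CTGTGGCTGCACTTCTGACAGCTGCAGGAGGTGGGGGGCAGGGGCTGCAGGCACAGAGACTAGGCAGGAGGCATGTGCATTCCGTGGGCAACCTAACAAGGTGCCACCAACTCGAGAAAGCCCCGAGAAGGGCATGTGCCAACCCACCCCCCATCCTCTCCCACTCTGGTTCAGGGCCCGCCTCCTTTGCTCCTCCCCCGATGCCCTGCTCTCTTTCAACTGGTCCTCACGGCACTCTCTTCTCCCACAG

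Hdac9 encodes a class IIa histone deacetylase that represses MEF2. It is one of the long host genes, with a span of 869.5 kb and 2 listed starts. The peak printed above had a score of 79.5, covered 246 of the 250 bases and lay 388.0 kb from the nearest span end. A second Hdac9 peak, with a score of 80.2, lay 460 bp from the same start. Nr4a1, the gene of an orphan nuclear receptor induced early after stimulation, held a peak with a score of 131 whose midpoint was 311 bp before its single listed start. In Creb5, which encodes a bZIP transcription factor, a peak with a score of 71.1 covered 135 of the 250 bases. Ppfia4, the gene of a liprin scaffold protein, held the strongest peak at a coding start, with a score of 635, and that peak covered the whole printed window.

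The other coding genes whose own start was the nearest one, within 1 kb, were Vps37c (score 413), Ppp2r3a (181), Ccser2 (174), Lmna (102), Cbx5 (72.7), Nedd9 (71.4), Acoxl (60.0), Ptpa (55.8) and Nav1 (53.0). Lmna encodes the nuclear lamins A and C, and its peak lay 161 bp from the second of 2 listed starts. Nedd9 encodes an adaptor of focal adhesions. A peak inside Myl4, a myosin light chain gene of embryonic muscle and atrium, had a score of 738 and lay 791 bp from the start of the long noncoding RNA Gm11665. The canonical MEF2 element (C, T and A, then 4 letters that are each A or T, then T, A and G) reads as the same pattern on both strands, so a single search covers both. It occurred in 0 of the 9 coding start windows that a peak overlapped, and in 0.557% of all 32851 listed windows, each running from 250 bases before to 50 after a start. These letters are therefore absent from those windows, which cover only part of most peaks. With a share as low as 0.557% over all windows, 0 of 9 says little about MEF2A binding.

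Deep peaks resembled the rest of the list in strength. Their median score was 74.96 (quartiles 58.5 and 139), against 80.5 (60.6 and 149) for the 470 peaks within 5 kb of a gene end and 77.5 (59.4 and 136) for the 1272 intergenic peaks. A score of at least 100 was held by 383 deep peaks (36.3%, exact binomial 95% interval 33.4 to 39.3%), against 36.8% of all C2C12 peaks. A score of at least 200 was held by 164 deep peaks (15.5%, 13.4 to 17.9%), against 15.2% of all peaks. The 3 groups also overlapped in width, with medians of 149 bp for deep peaks, 152 bp at gene ends and 141 bp for intergenic peaks. At the very top of the list, 7 of the 10 highest scores belonged to deep peaks, against 1 at a gene end and 2 intergenic. Among the first 100 the numbers were 36 deep, 21 at gene ends and 43 intergenic. This is close to the shares over all C2C12 peaks, which were 37.7%, 16.8% and 45.5%.

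**Figure D1:**
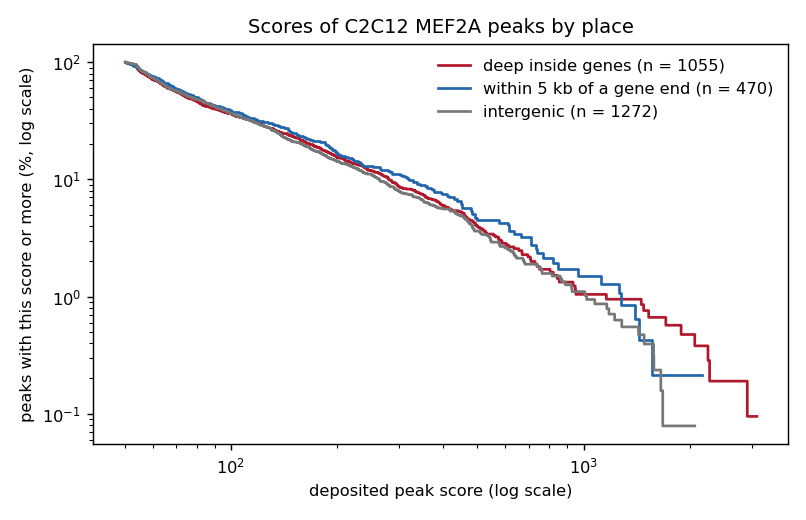
Share of C2C12 MEF2A peaks (y axis, %, log scale) with at least the deposited score on the x axis (log scale), for 1055 peaks deep inside genes, 470 within 5 kb of a gene end and 1272 intergenic peaks. The 3 curves run close together over most of the range, and the highest score, 3100, belongs to a deep peak.

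Deep sequence was occupied slightly more densely than the rest of the genome. Of the 2691 Mb between the first and last protein-coding gene of each chromosome, 855 Mb (31.8%) fulfils the rule, and it held 37.7% of the peaks. That is 1.23 peaks per Mb of deep sequence, against 0.949 per Mb elsewhere, a ratio of 1.30. Which parts of either can be aligned is not known from these files. Most deep peaks were far from any gene end, at a median of 29.8 kb (quartiles 14.1 and 73.5 kb). The distance exceeded 10 kb for 914 peaks (86.6%) and 100 kb for 175 (16.6%), and its maximum was 981.1 kb. Just inside the limit of 5 kb stood a peak in Anapc7 (5082 bp, score 56.5) and one in Wdr70 (5107 bp, score 305). Just outside it were peaks in Fhl3 (4982 bp, score 149) and Tjap1 (4979 bp, score 191).

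The peaks fell in 793 host genes, or 5.74% of the 13809 protein-coding genes that have any deep sequence. Of the peaks, 15 lay in 2 overlapping host genes each. Host genes were long, with a median span of 131 kb (quartiles 68.3 and 251 kb), against 33.7 kb (18.9 and 72.6 kb) for all genes with deep sequence. Of the hosts, 483 (60.9%) span at least 100 kb, against 17.6% of all genes with deep sequence. A long gene has more deep sequence in which a peak can be counted, and the share of genes with a peak was higher in each longer class. It was 0.397% at 10 to 20 kb, 2.38% at 20 to 50 kb, 6.92% at 50 to 100 kb, 14.7% at 100 to 200 kb, 26.3% at 200 to 500 kb and 31.3% at 500 kb or more.

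Density per Mb of deep sequence took another course. It was 0.891 peaks per Mb (exact Poisson 95% interval 0.499 to 1.47) in genes of 10 to 20 kb, and from 1.34 to 1.59 in the 4 classes from 20 to 500 kb. In the 227 genes of 500 kb or more it was 0.62 peaks per Mb (0.513 to 0.743). The interval of the longest class does not overlap those of the classes from 20 to 500 kb, although peaks that lie close together are not independent counts.

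**Figure D2:**
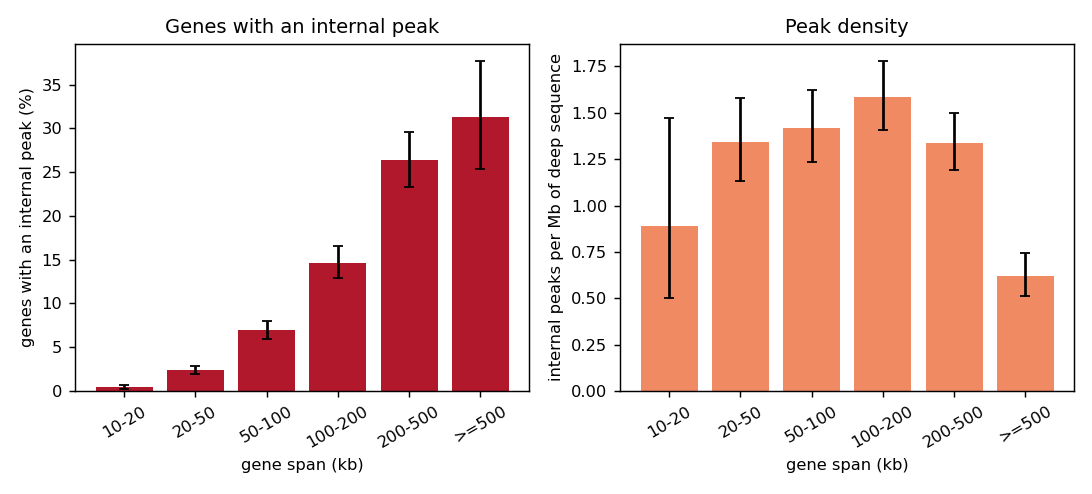
Left, share of protein-coding genes with deep sequence that held an internal MEF2A peak (%), by gene span in kb, with exact binomial 95% intervals. Right, internal peaks per Mb of deep sequence in the same classes, with exact Poisson 95% intervals; the share climbs to 31.3% with span, while the density is lowest, at 0.62 per Mb, in genes of 500 kb or more.

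The longest hosts did not hold the strongest peaks. Ptprd, a receptor tyrosine phosphatase gene spanning 2271 kb, held 2 peaks with a top score of 64.2. Macrod2 (1998 kb) held 1 peak of 59.2, Dlg2, a synaptic scaffold gene (1973 kb), 2 peaks with a top score of 66.5, and Ctnna3, an alpha-catenin gene (1574 kb), 1 peak of 60.7. Nrxn3, a neurexin gene (1612 kb), held 1 peak of 167. Among the 5 shortest hosts, Serpina9 (17.0 kb) held a peak of 484, Smtnl1, a smoothelin-like gene (15.7 kb), one of 334 and Ccr3, a chemokine receptor gene (13.9 kb), one of 280. Asf1b, a histone chaperone gene (14.5 kb), held a peak of 123 and Sertad4 (11.3 kb) one of 77.9. All 5 of the short hosts thus had stronger peaks than 4 of the 5 longest. These extremes of span do not stand for all hosts. The median host span was 131 kb over all deep peaks. It was 154.5 kb with a score of at least 100 and 163.9 kb with a score of at least 200.

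The hosts of the strongest deep peaks differ in where the peak sits. In Fggy, a carbohydrate kinase gene, the top peak (score 3100) was 79.8 kb into the gene from its first listed start, at 21.6% of the span. In Akap6, whose product anchors protein kinase A at the nuclear envelope of muscle cells, a peak with a score of 1711 lay 155.3 kb from the start, at 34.2% of the span. In Tprg, a peak of 2253 lay at 83.5% of the span. Mxra7, a gene of only 24.7 kb, held a peak of 1480 at 6.75 kb from the nearest listed start. Gipc2, which encodes a PDZ adaptor, held peaks of 1529 and 56.9 that were 128 bp apart. Matn2, a matrilin gene of the extracellular matrix, held peaks of 2277 and 62.2 separated by 8.25 kb, and Mtus1, a microtubule-associated gene, held one of 1891 and one of 52.2 separated by 99.2 kb. The second peak of Fggy scored 50.3, so the weaker peak of these 4 genes scored 50.3 to 62.2, against a lower bound of 50.1 for all deep peaks.

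Being inside a span did not always mean being downstream of a listed start. The table of starts gave a strand for 600 of the 793 hosts, covering 814 pairs of a peak and a host. In 42 of these (5.16%, exact binomial 95% interval 3.74 to 6.91%), in 30 genes, the midpoint of the peak lay upstream of every listed start, because the annotated span reaches farther than the listed transcripts. The distance was over 100 kb for 16 of them. Npas4, an activity-regulated transcription factor gene, is the strongest case, with its peak (score 2912) 2.97 kb upstream of its single listed start. The Rapgef2 peak (score 1457) was 15.7 kb upstream; the gene encodes an exchange factor for the small GTPase Rap1. The Bach2 peak of 356 was 25.9 kb upstream of the only listed start of that transcriptional repressor gene.

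**Figure D3:**
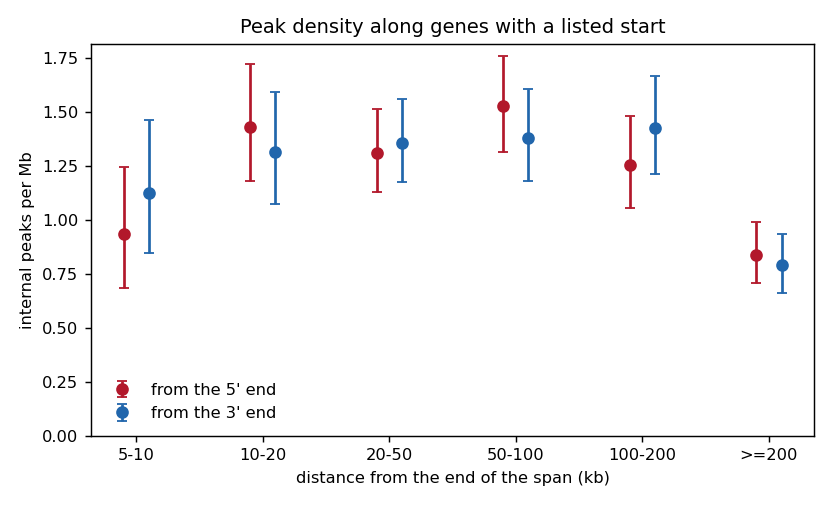
Internal MEF2A peaks per Mb of deep sequence (y axis) by distance from the 5′ end and the 3′ end of the host span in kb (x axis), over genes with a listed start; bars are exact Poisson 95% intervals. Density stays between 0.936 and 1.53 per Mb up to 200 kb and is 0.839 and 0.792 per Mb at 200 kb or more.

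Along the gene the peaks were spread out, with no accumulation toward the 5′ end of the span in the range the rule allows. Nearness to listed starts within the span, given above, is a different measure. The median position was at 0.50 of the span, counted from the 5′ end. Counted from the 5′ end, density was 0.936 peaks per Mb (exact Poisson 95% interval 0.685 to 1.25) at 5 to 10 kb, 1.43 (1.18 to 1.72) at 10 to 20 kb and 1.31 (1.13 to 1.51) at 20 to 50 kb. It was 1.53 (1.32 to 1.76) at 50 to 100 kb and 1.26 (1.06 to 1.48) at 100 to 200 kb. Counted from the 3′ end, it was 1.13 (0.848 to 1.46) at 5 to 10 kb and 1.43 (1.21 to 1.67) at 100 to 200 kb. Beyond 200 kb, where only the longest genes contribute, it was 0.839 from the 5′ end and 0.792 from the 3′ end.

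Several internal peaks were found in 200 of the 793 hosts, or 1.45% of all genes with deep sequence. Among these, 148 had 2 peaks, 39 had 3 and 13 had 4 or more. Together they held 465 of the deep peaks (44.1%). They were longer than the 593 hosts with a single peak, with a median span of 213 kb against 113 kb. The median score of their strongest peak was 124, against 75.8 for the only peak of the single-peak hosts, but a highest of several values and a single value are not like measures. Within these genes the strongest peak had a median of 1.82 times the score of the next (quartiles 1.26 and 2.99).

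Neighbouring peaks in the same gene were up to 696.9 kb apart, with a median gap of 14.2 kb. Of the 269 neighbouring pairs, 80 (29.7%) were less than 1 kb apart, with a median gap of 35.5 bp, and 147 (54.6%) were 10 kb or more apart. The remaining 42 lay between. A gap of 35.5 bp is less than the width of most peaks, and a list without read counts cannot tell 2 sites from a single region that was split. With peaks less than 1 kb apart merged, 154 genes still had several internal regions, 33 had 3 or more and 6 had 4 or more. Those 6 were Pakap with 5 regions and Fam227b, Fgf7, Vwa8, Tenm3 and Ppargc1a with 4 each.

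**Figure D4:**
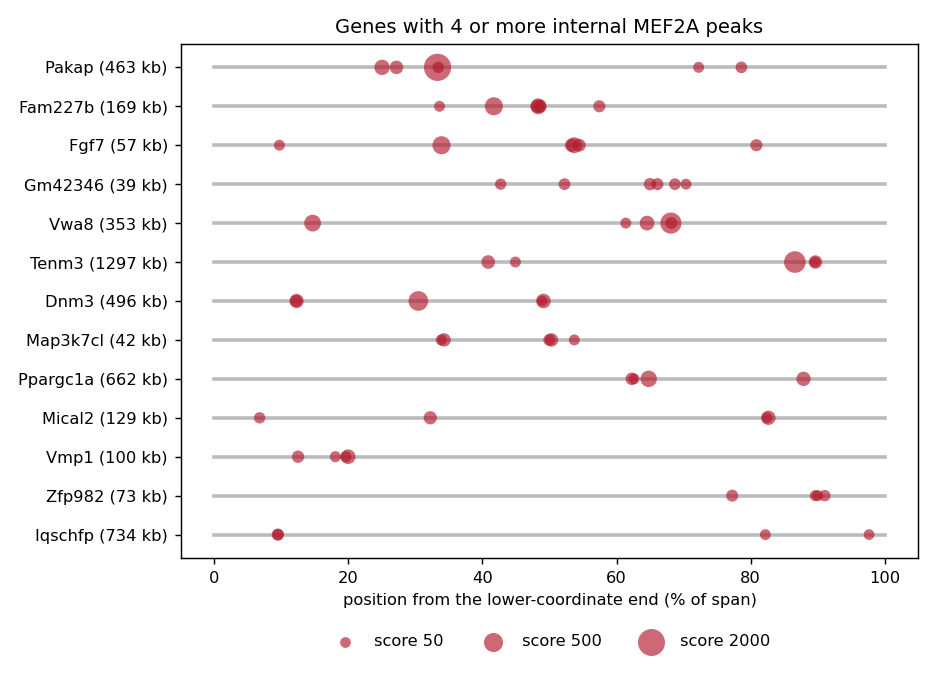
Position of each internal MEF2A peak (circles, with a larger area for a higher score) along the 13 genes with 4 or more, in % of the span from its lower-coordinate end; grey lines are the spans, whose length in kb follows the gene name. The 5 peaks of Map3k7cl lie within 8.48 kb, while neighbouring peaks of Tenm3 are up to 540.0 kb apart.

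Pakap, which encodes proteins of the paralemmin and protein kinase A anchoring kind from 5 listed starts, held 6 peaks in 462.5 kb. Their scores were 210, 128, 2067, 64.3, 54.7 and 69.9 in coordinate order. The strongest lay 20.3 kb after the nearest start listed for the gene, and the first 2 lay 17.5 and 7.58 kb before a start. Vwa8, the gene of a mitochondrial ATPase, held 5 peaks with scores of 300, 54.4, 180, 750 and 78.4. The last 2 of these were 10 bp apart, and the first was 164.7 kb from its neighbour. Dnm3, a dynamin gene, held 5 peaks in 3 places, with scores of 81.0 and 157, 562, and 50.6 and 171. Mical2, which encodes an enzyme that oxidises actin, held 4 peaks in 3 places, with scores of 63.7, 115, and 54.1 and 160.

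In Tenm3 and Ppargc1a every internal peak lay upstream of the only listed start. Tenm3, a teneurin gene for cell adhesion spanning 1297 kb, held 5 peaks, at 81.0, 133.7, 674.1, 713.2 and 713.8 kb upstream, and the third scored 821. Ppargc1a, the gene of the mitochondrial coactivator PGC-1alpha, held 4 peaks at 298.4, 300.7, 315.2 and 467.9 kb upstream, with scores of 91.6, 55.5, 277 and 158. Both genes have spans that run far beyond the listed start, so these peaks are inside the annotated locus and not inside the listed transcript.

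Other genes with many peaks held them within shorter stretches. The span of Fgf7, a fibroblast growth factor gene of 56.5 kb, lies within that of Fam227b, so both counted the same 6 peaks. Their scores were 54.4, 404, 120, 239, 96.6 and 82.1 within 40.3 kb. The gaps between them were 13.4 kb, 10.6 kb, 6 bp, 197 bp and 14.7 kb, so not all of these peaks were close together. Map3k7cl held 5 peaks of 54.8 to 122 within 8.48 kb. Gm42346 held 6 deep peaks of 53.2 to 88.3, in a run of 10 peaks over 43.0 kb, and Zfp982, a zinc finger gene, held 4 of 54.4 to 80.4, in a run of 7 peaks over 23.2 kb. Vmp1, which encodes a membrane protein of autophagy, held 4 deep peaks of 57.5 to 175 in a run of 12 peaks over 21.5 kb. These 5 runs held 25 of the deep peaks, and without them, and without other runs of 5 or more peaks, 194 genes had several internal peaks. Of the other genes named for their number of peaks, Iqschfp held 4 peaks of 50.3 to 78.2, and the top scores of those with 3 peaks were 951 in Lrmda, 728 in Stk32b, 669 in Kank1, 517 in Synpo2, 509 in Tspan9, 465 in Rassf4 and 442 in Aopep.

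Several host genes also carry microRNAs. Within 15 kb of a deep peak and inside its host gene lay 15 microRNA hairpins in 14 hosts. Mature microRNAs from inside Dnm3 and Vmp1 are shown because both hosts held 4 or more peaks (RefSeq, GRCm38.p6), 5′ to 3′ with the seed, bases 2 to 8, in capitals.
mmu-miR-214-3p: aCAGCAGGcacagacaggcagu
mmu-miR-199a-3p: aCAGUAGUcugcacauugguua
mmu-miR-199a-5p: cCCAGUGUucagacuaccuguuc
mmu-miR-21a-5p: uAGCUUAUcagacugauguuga

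No 2 of these 4 share a seed. Mir214 and Mir199a-2 lie on the plus strand of chromosome 1, opposite to Dnm3, at 1.52 and 7.07 kb from the Dnm3 peak that scored 50.6. Mir21a lies on chromosome 11 near the 3′ end of Vmp1, on the same strand, and the nearest deep peak, with a score of 89.3, was 12.2 kb away. The hairpin itself lies inside the Vmp1 run of 12 peaks, most of which are not deep, and the highest score in that run, 282, belongs to a peak that is not deep. The stronger Dnm3 peak of 171 and Vmp1 peak of 175 were each farther from the hairpins. In all, 7.11% of deep peaks lay inside an annotated noncoding gene or pseudogene (75 of 1055), while such genes cover 4.74% of the deep sequence.

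The host genes were then set against 18 lists of genes by function. Of the 793 hosts, 235 were on at least 1 list. For each list, the share of its genes with an internal peak was set beside 5.74%, the share over all genes with deep sequence. It was also set beside the share in all genes of the same span classes, since listed genes are often long. The lists were chosen with earlier results of these data known, so their shares are descriptions, and no list was tested.

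Dystrophin complex and costamere genes, which join the sarcomere to the membrane and matrix, had the highest share. An internal peak was found in 21 of 50 (42.0%, exact binomial 95% interval 28.2 to 56.8%), against 16.8% in all genes of the same span classes. Density was 2.46 peaks per Mb, against 1.24 over all genes with deep sequence. The top scores were 804 in Sspn (sarcospan), 709 in Sgce (a sarcoglycan), 584 in Utrn (utrophin) and 574 in Sntb1 (a syntrophin). The Sspn peaks lie 67 bp apart at 14.1 and 14.6 kb from the nearest span end. The median top score of the 21 hosts was 126, against 86.6 over all hosts. Of the 21, 10 held several peaks, so these medians are not quite like measures. Nor is a high median particular to this list. In the lists named for other cell types it was 146 for leukocyte, 144 for endothelial, 83.1 for neuron and 56.4 for hepatocyte genes. Among the hosts, Plec, Svil and Macf1 held 3 peaks each.

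Sarcomere and Z-disc genes, with a median span of 49.4 kb, had internal peaks in 11 of 59 (18.6%, 9.69 to 30.9%), against 8.22% in their span classes. Their density, 3.54 peaks per Mb (exact Poisson 95% interval 2.06 to 5.67), was above the 1.24 of all genes. Synpo2 encodes an actin-bundling protein of the Z-disc, and its 3 peaks scored 517, 261 and 87.5, with gaps of 4.71 and 2.30 kb. Myl4 (738) and Palld (493), the gene of the actin scaffold palladin, were the others with a score of at least 200. Sorbs2 (84.6), an adaptor gene, held 3 weaker peaks. The remaining hosts, from Myom2 to Tnni1, had top scores of 51.3 to 74.96.

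Transcription regulators gave 41 of 123 (33.3%, exact binomial 95% interval 25.1 to 42.4%), against 15.8% in their span classes, at 2.61 peaks per Mb. Their strongest peaks were in Bach2 (356), Tbx20 (356), a cardiac T-box factor, Runx2 (297), the osteoblast regulator, and Ppargc1a (277). A peak of at least 200 was held by 6 of the 123 genes (4.88%), against 1.12% of all genes with deep sequence, a value not matched for span. The share was similar in the leukocyte list, at 2 of 44 (4.55%). It was 2.41% in the neuron list and 0 in the endothelial and hepatocyte lists. Hdac5, a class IIa histone deacetylase gene, held a peak of 195, and Mef2c, another MEF2 gene, 2 peaks with a top score of 100.2. The muscle TEA-domain factor genes Tead1 and Tead4 had top scores of 120 and 73.0. These 4 were chosen for mention after their values were seen.

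Regulators of actin gave 30 of 105 (28.6%, exact binomial 95% interval 20.2 to 38.2%), against 17.6% in their span classes. Rapgef2 (1457), Ppp1r12b (360), a myosin phosphatase subunit gene of striated muscle, Arhgap6 (355) and Rapgef1 (280) were highest. Adhesion and cadherin genes gave 19 of 51 (37.3%, 24.1 to 51.9%), against 20.7%, but at 1.24 peaks per Mb, equal to the density over all genes. Its hosts included Cdh18 (842), Tenm3 (821) and Cdh12 (134), and its median top score was 60.7. Matrix genes gave 22 of 95 (23.2%, 15.1 to 32.9%), against 14.4%, with Matn2 (2277), Adamts6 (613), a secreted protease gene, Sdc2 (502), a syndecan, and Ltbp1 (388), which binds latent TGF-beta.

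Among the other lists, RNA binding genes gave 12 of 55 (21.8%), against 12.98% in their span classes. They included Mbnl2 (669) and Celf2 (342), both splicing regulators, Igf2bp2 (294) and Ago2 (161). Kinase anchoring genes gave 6 of 34 (17.6%), against 11.5%, led by Pakap (2067), Akap6 (1711), Akap13 (125) and Myrip (73.8). Calcium genes gave 14 of 70 (20%), against 14.6%, with Atp2b1 (286), a plasma membrane calcium pump gene, Plcb1 (194), Rcan2 (164), a calcineurin regulator, and Camk2d (144). MAPK genes gave 8 of 53 (15.1%), against 8.93%, with Tnik (345), Mapkapk2 (307), Map3k4 (210) and Map3k20 (133). Growth factor and receptor genes gave 18 of 112 (16.1%), against 13.7%, with Fgf7 (404), Robo2 (296), Insr (236), the insulin receptor, and Nrg1 (191). In each of these 5 lists the exact binomial 95% interval of the share covered the value of the span classes. The intervals make no allowance for the 18 lists looked at, and for no list are they a test.

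**Figure D5:**
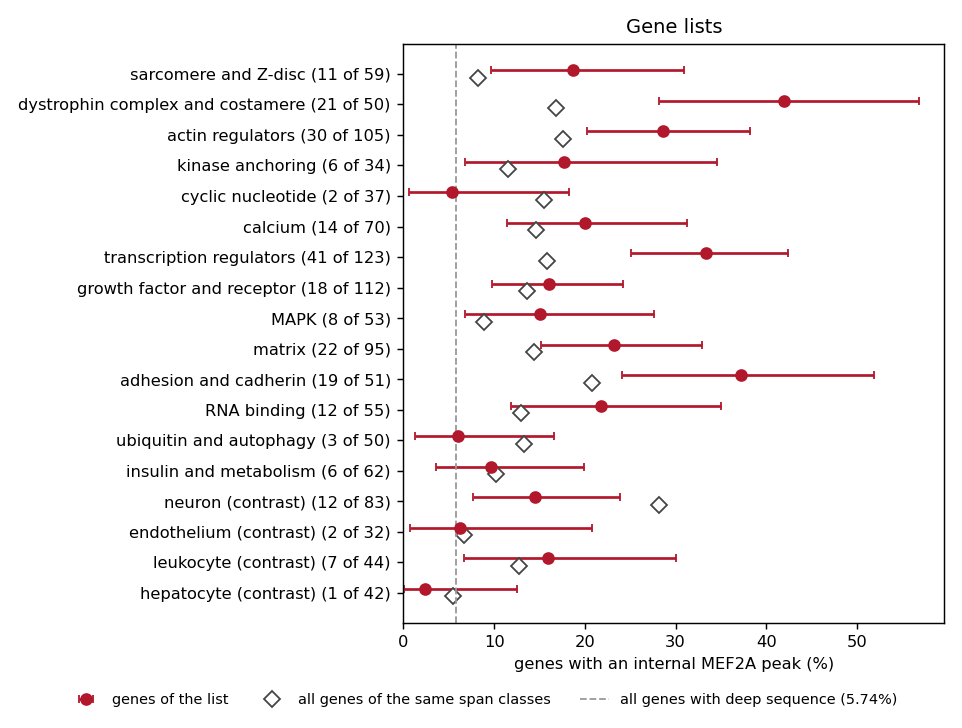
Share of genes with an internal MEF2A peak (x axis, %) in 18 gene lists, as points with exact binomial 95% intervals; diamonds are the share over all genes of the same span classes and the dashed line is 5.74%, the share over all genes with deep sequence. Dystrophin complex and costamere genes stand highest, at 42.0%, and the neuron list, at 14.5%, lies below its span classes, at 28.1%.

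In a further 3 lists the share was below that of the span classes, but its exact binomial 95% interval covered that of the span classes. Cyclic nucleotide genes, with a median span of 123 kb, had a peak in 2 of 37 (5.41%, exact binomial 95% interval 0.661 to 18.2%), against 15.5% in their span classes. The hosts were Prkg1 (189) and Pde5a (56.9). Ubiquitin and autophagy genes gave 3 of 50 (6%), against 13.3%, among them Nedd4l (163) and Fbxo32 (59.7). Insulin and metabolism genes gave 6 of 62 (9.68%), against 10.2%, at 1.58 peaks per Mb, with Fggy (3100), Acacb (286), Ldlrad3 (256) and Gbe1 (66.2).

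Genes named for other cell types served as contrast. Neuron genes are the longest on any list, with a median span of 671 kb, and 12 of 83 (14.5%, exact binomial 95% interval 7.70 to 23.9%) had an internal peak, against 28.1% in their span classes. Density was 0.252 peaks per Mb (exact Poisson 95% interval 0.144 to 0.409), against 1.24 over all genes, a value not matched for span. All genes of 500 kb or more, closer in span to this list, had 0.62 peaks per Mb (0.513 to 0.743). The strongest peaks of the neuron list were in Astn2 (243), Cntnap4 (216), Nrxn3 (167) and Adgrl3 (136). Leukocyte genes gave 7 of 44 (15.9%), against 12.7%, with Themis (488), Fyb (270), Skap2 (167) and Bank1 (146). Endothelial genes gave 2 of 32 (6.25%), against 6.63%, in Adgrl4 (193) and Vwf (93.9), and hepatocyte genes 1 of 42 (2.38%), against 5.49%, in Dpyd (56.4). Which listed genes are expressed in these cells was not measured here, and proximity of a peak to a gene does not show that the gene is regulated.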

How the data were processed

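Tools named, per the submitters' processing notes, were MACS 1.4.2, BWA 0.5.9, SAMtools, Picard and CASAVA 1.7.0, with the builds mm10 and rn5 and no roles or settings. The authors deposited 1 peak list per MEF2A library, with a position and a score per peak and no header; the score was used only to describe and rank peaks within the list. Read depth was not given, and the IgG libraries were not analysed here. Rat peaks were counted but not placed, as no rat annotation was used.

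Starts in the list were taken as 0-based and are given 1-based. Spans of 21887 protein-coding genes came from a RefSeq table for GRCm38.p6, which shares its coordinates with mm10. It gives no exons, and no genome sequence was used, so exons and introns were not told apart and the planned motif search in peaks was not run. Starts and strands came from a RefSeq table of start windows without chromosome 18, which is not complete. A deep base fulfils the same rule as a deep peak; densities are peaks per Mb of such bases. Of 1208 listed symbols, 3 matched through a synonym and 1 was not found.

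The members and gene lists were chosen with earlier results of these data known. Named genes are hosts of the 10 highest-scoring deep peaks, the 20 genes with most peaks, the 5 longest and 5 shortest hosts, up to 4 genes per list, the hosts of the 2 peaks on either side of the limit and, chosen after their values were seen, genes at internal starts, microRNAs and upstream positions, and further list members. Not all of the genes this rule takes are described, and a few are not reported here. Intervals are exact (Clopper-Pearson or Poisson), at 95%. The placement code was tested on simulated data. Software was pandas 2.3.3, numpy 2.4.6 and scipy 1.17.1 under Python 3.11.15, with figures by matplotlib 3.10.9.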

Additional observations from a re-analysis of the deposited data

How the results depend on the processing

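The list of peaks decides most counts. With a score of at least 100, 383 peaks, 348 host genes, 31 genes with several internal peaks and 117 listed genes remained in the count, with 5 neuron genes among them, and the medians were 180 for the score, 270 bp for the width and 154.5 kb for the span. With a score of at least 200 the same values were 164, 155, 11, 49 and 2, with 8 costamere genes, and medians of 337, 374.5 bp and 163.9 kb. Both settings keep fewer and stronger peaks by construction. The median span was 123.5 kb with a limit of 2 kb and 151.8 kb with one of 10 kb, which changes the genes that can qualify, and merging peaks less than 1 kb apart gave a median width of 160 bp. The density of deep peaks relative to the whole annotated genome, 1.19 times, ranged from 1.17 to 1.22 times over all settings that gave it. Counts of deep peaks and host genes stayed within 1.5 times under the other limits, merging, midpoints and the ends of all annotated genes. They did so too under 2 settings chosen after seeing the data, without dense runs and with spans cut back to the first listed start (1005 peaks and 762 hosts). Of the 18 lists, 15 changed their count by more than 1.5 times at a score of at least 100 and all 18 at 200, against none after merging. No paired analysis was possible because a group is a single library. Whether weak peaks recur in another library was not tested, and their depth is unknown.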
